A study of Mus musculus with 64 samples.

Results

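Voltage-gated calcium and sodium channel genes were followed here in the hypothalamus and the prefrontal cortex (PFC) of mice given a single dose of the psychedelic psilocybin. The genes were chosen by symbol, as every protein-coding row named Cacna, Cacnb or Cacng, or Scn with a number and the letter a or b, with a mean of at least 0.1 CPM (counts scaled to a common library size) over the libraries with at least 1000000 counted reads. Of 40 such symbols 39 met the minimum, out of 55401 genes in the count table. The 39 were 26 calcium channel genes, with 10 pore-forming and 16 auxiliary subunits, and 13 sodium channel genes, with 9 alpha and 4 beta subunits. Cacng1 lay just inside the minimum (mean 0.123 CPM) and the muscle sodium channel gene Scn4a just outside it (mean 0.0646 CPM). All but Cacng1 also passed the filter on low counts, which left 38 genes for the tests.

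RNA was sequenced from 32 male, chow-fed C57BL/6J mice, all of them wild type and 10 weeks old when injected. Each mouse received 3 mg/kg psilocybin or isotonic saline into the peritoneum and was killed 3 h or 4 weeks later, so that the mice of the later time were also 4 weeks older. Whole hypothalamus and PFC (labelled frontal cortex) were taken from every mouse, which gave 8 groups of 8 libraries. Each of 8 cages held 1 mouse of every treatment and time, the cage number is the replicate number, and RNA was extracted in 4 pools, A and B for hypothalamus and C and D for PFC, with cages 1 to 4 in A and C and cages 5 to 8 in B and D. The RNA is bulk tissue RNA, so a lower level can mean fewer cells of a type or less RNA per cell, and these cannot be told apart.

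Voltage-gated sodium channels carry the rising phase of the action potential. Their alpha subunit (such as Scn1a, Scn2a and Scn8a) forms the pore, and the small membrane-spanning beta subunits (such as Scn2b and Scn4b) set its gating and anchor it. Voltage-gated calcium channels open on depolarisation and let in the calcium that triggers transmitter and hormone release, dendritic signalling and transcription. Their pore is an alpha1 subunit of the L type (Cacna1s, Cacna1c, Cacna1d, Cacna1f), the P/Q, N or R type (Cacna1a, Cacna1b, Cacna1e) or the low-voltage T type (Cacna1g, Cacna1h, Cacna1i), and cytoplasmic beta (Cacnb) and extracellular alpha2delta (Cacna2d) subunits carry it to the membrane. Most of the Cacng genes encode TARPs, transmembrane proteins best known for escorting AMPA-type glutamate receptors to synapses. In cortical and hypothalamic neurons these channels set firing, bursting and peptide release.

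The promoter sequences of 4 of the genes are shown because these genes were among the farthest apart between the regions and their upstream bases hold no annotated exon. They are the 250 bases before the annotated start, 5′ to 3′ on the gene's strand, from RefSeq on GRCm38.p6, and CG dinucleotides are in capitals. Scn9a (chr2:66634963-66635212, minus strand) and Scn11a (chr9:119825457-119825706, minus strand) were higher in hypothalamus, and Scn8a (chr15:100870395-100870644, plus strand) and Cacnb3 (chr15:98632078-98632327, plus strand) were higher in PFC.
Scn9a: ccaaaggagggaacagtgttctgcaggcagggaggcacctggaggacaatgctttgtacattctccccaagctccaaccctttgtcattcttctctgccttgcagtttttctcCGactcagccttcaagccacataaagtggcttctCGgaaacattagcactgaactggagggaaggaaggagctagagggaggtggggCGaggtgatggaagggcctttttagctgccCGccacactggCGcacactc
Scn11a: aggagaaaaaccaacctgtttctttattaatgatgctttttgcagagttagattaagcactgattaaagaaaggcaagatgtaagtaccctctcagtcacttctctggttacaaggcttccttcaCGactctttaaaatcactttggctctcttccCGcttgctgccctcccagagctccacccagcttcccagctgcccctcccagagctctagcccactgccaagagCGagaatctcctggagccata
Scn8a: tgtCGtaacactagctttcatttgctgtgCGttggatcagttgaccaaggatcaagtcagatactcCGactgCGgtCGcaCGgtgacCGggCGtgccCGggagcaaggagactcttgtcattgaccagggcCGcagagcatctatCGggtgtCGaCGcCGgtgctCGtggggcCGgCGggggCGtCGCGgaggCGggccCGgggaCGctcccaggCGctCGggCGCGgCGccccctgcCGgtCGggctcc
Cacnb3: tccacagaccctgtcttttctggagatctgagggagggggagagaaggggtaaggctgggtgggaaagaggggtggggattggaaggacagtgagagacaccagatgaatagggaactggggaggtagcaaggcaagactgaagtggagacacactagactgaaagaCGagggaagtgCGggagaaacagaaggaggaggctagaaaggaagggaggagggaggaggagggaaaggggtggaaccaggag

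The Scn8a window held 30 CG dinucleotides and was 68.0% G and C. The Cacnb3 window had 2 CG dinucleotides and 56.0% G and C, that of Scn9a 5 and 54.4%, and that of Scn11a 3 and 48.0%. The RefSeq table lists a second promoter for both PFC-higher genes, and there the order was the opposite: the second Scn8a window (chr15:100936021-100936270) held 9 CG dinucleotides and was 53.2% G and C, and the second Cacnb3 window (chr15:98634517-98634766), which overlaps an annotated exon, held 23, was 70.4% G and C and had 3 GC boxes. Which start is used in these tissues was not tested. Over the 32841 promoters of the RefSeq table the median was 52.4%, and over the 40 promoters listed for 29 of the 39 channel genes it was 56.4%. None of the 4 windows shown held a GC box (GGGCGG), a cyclic AMP response element (TGACGTCA) or a TATA box (TATAAA) on either strand. A GC box stood in 15 of the 40 channel gene promoters (37.5%) and in 32.7% of all promoters, a cyclic AMP response element in 0 of 40 and 1.55%, and a TATA box in 2 of 40 (5.0%) and 12.4%. These matches describe the letters in the windows only.

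The 62 libraries used held 8061033 to 70361839 counted reads (median 18287978.5). A saline 3 h hypothalamus library (replicate 2, 211111 reads) and a psilocybin 4-week PFC library (replicate 3, 200066 reads) were left out, which left 31 libraries of each region and 30 mice with both. Defining markers followed the region labels: Slc17a7, the glutamate transporter of cortical excitatory neurons, was at 1059 to 1575 CPM in PFC and 8.87 to 101.7 CPM in hypothalamus, and oxytocin (Oxt) at 0 to 7.63 and 67.7 to 1201 CPM. Some libraries stood apart. In the 4 PFC libraries of cage 6 the summed level of 8 striatal markers was 768.4 to 2107 CPM, against a PFC median of 313.1, and in saline 4-week PFC replicate 3 the summed level of 7 hypothalamic markers was 12.8 CPM, against a PFC median of 2.75. In psilocybin 4-week hypothalamus replicate 5 the hypothalamic marker sum was 2684 CPM (region median 489.5), and 24 of the 38 channel genes lay below and 5 above the range of the other 7 libraries of its group. Psilocybin 3 h PFC replicate 7 had 13 channel genes below and 7 above its group's range.

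Per unit of gene length, in TPM (length-scaled transcript levels) computed from the counts, the auxiliary subunits were the most abundant channel messages. In PFC the levels were high for Cacnb3 (median 284 TPM, range 243.7 to 384.6), Cacng7 (233.2 TPM), Scn2b (231.1 TPM) and Cacng3 (186.5 TPM). In hypothalamus Scn2b (278.4 TPM) led, followed, among the genes named here, by Cacng7 (185.1 TPM), Scn3b (101.9 TPM) and Cacnb3 (88.6 TPM). The pore-forming genes with the highest medians were Scn2a, at 91.7 TPM in PFC and 86.2 TPM in hypothalamus, and Scn8a in PFC (79.7 TPM) and Scn1a in hypothalamus (63.6 TPM). At the bottom of the order stood Scn10a, Scn11a, Cacna1f, Cacna1s and Cacng1 in PFC and the same genes with Cacng6 (0.349 TPM) in hypothalamus, all with a median under 1 TPM. Ranges of neighbours in the order overlapped in 37 of 38 pairs in PFC and 36 of 38 in hypothalamus, so the order fixes broad levels and not single ranks.

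The summed TPM of the sodium alpha subunits was of like size in the regions, with a median of 233.6 TPM in PFC and 268.0 TPM in hypothalamus, and so was that of the calcium alpha1 subunits, at 245.6 and 247.8 TPM. The summed auxiliary levels were farther apart. Calcium beta subunits had a median of 513.2 TPM in PFC (414.3 to 591.2) and 228.7 TPM in hypothalamus (189.9 to 269.9), ranges that do not overlap. The medians were 1025 and 707.3 TPM for sodium beta, 584.5 and 443.2 TPM for gamma and 141.8 and 179.8 TPM for alpha2delta subunits. These sums are descriptions on the TPM scale and were not tested.

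The shares of the members within a subunit class are given as descriptions, with no test. Of the summed sodium alpha TPM in PFC, Scn2a made up 38.7% ± 2.6, Scn8a 34.7% ± 3.3 and Scn1a 19.6% ± 2.0 (mean and SD, n = 31). In hypothalamus the shares were 32.8% ± 1.6 for Scn2a, 24.1% ± 2.7 for Scn1a and 16.6% ± 2.2 for Scn8a, and Scn9a took 6.46% and Scn7a 4.74%, against 0.380% for Scn9a in PFC. Of the calcium alpha1 sum, the T-type gene Cacna1g made up 11.8% in PFC and 22.1% in hypothalamus, and the P/Q-type gene Cacna1a 17.8% and 11.8%. Among alpha2delta subunits, the targets of the gabapentinoid drugs being Cacna2d1 and Cacna2d2, PFC had 56.2% ± 6.9 Cacna2d1 and 11.3% ± 2.9 Cacna2d2, and hypothalamus 35.1% Cacna2d1 and 45.6% ± 2.9 Cacna2d2. Cacnb3 made up 57.9% ± 4.7 of the calcium beta sum in PFC and 40.9% ± 6.3 in hypothalamus. Cacng3 made up 31.4% ± 3.3 of the gamma sum in PFC and 8.24% ± 1.1 in hypothalamus.

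The first comparison set PFC against hypothalamus within the same mice. It was averaged over the 4 combinations of treatment and time, with edgeR's quasi-likelihood test and the mouse as a block over 30 mice. Of the 38 channel genes 34 differed (89.5%), 21 higher in PFC and 13 higher in hypothalamus, where 75.2% of all 18991 genes tested differed (39.3% higher and 35.9% lower in PFC). The median log2 fold change (PFC over hypothalamus) was 0.42 for the channel genes and 0.02 for all genes. Because 3 in every 4 genes differed between the regions, the count of channel genes by itself says little, and the sizes and the direction by subunit carry the comparison. Regions were extracted in separate pools, so region and pool cannot be told apart. The 34 genes had the same direction in A and C, the pools of cages 1 to 4, and in B and D, the pools of cages 5 to 8.

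**Figure D1:**
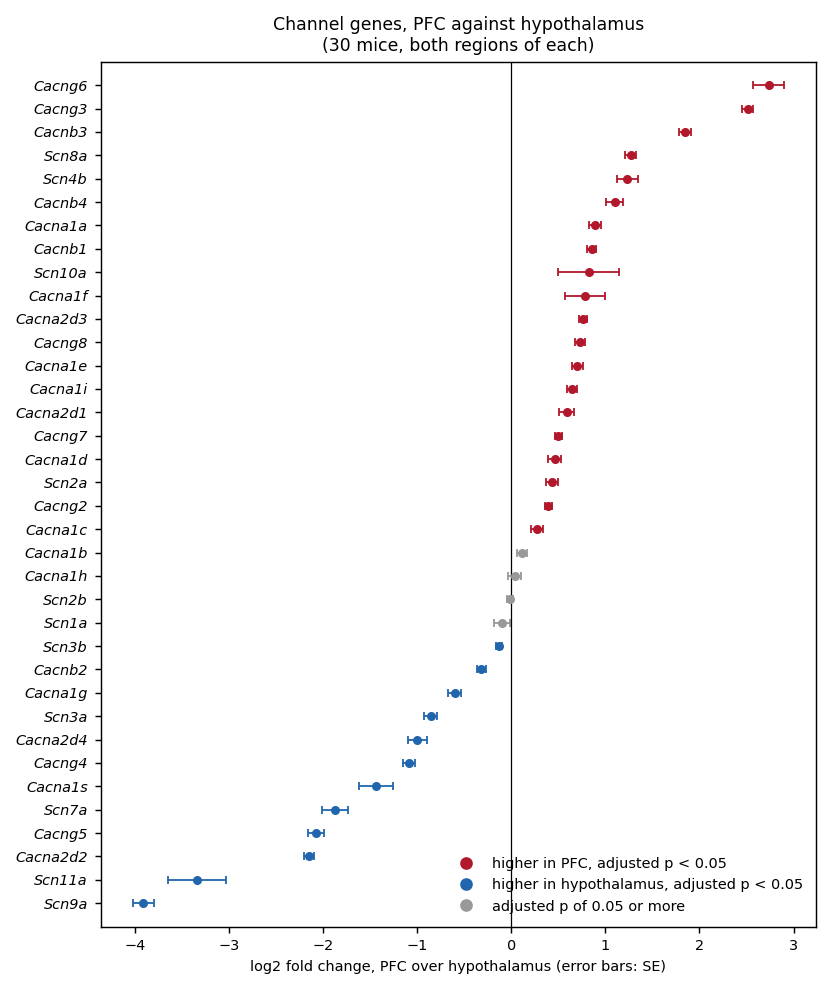
Log2 fold change of PFC over hypothalamus (horizontal axis) for 36 channel genes, ordered by value, with points at the fitted value and bars for the SE (30 mice), red for higher in PFC, blue for higher in hypothalamus and grey for an adjusted p of 0.05 or more. Values run from -3.91 for Scn9a to 2.73 for Cacng6, with Scn9a and Scn11a below -3 and Cacng3 and Cacng6 above 2.

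Sodium alpha subunits gave the widest spread. The gene with the farthest shift was Scn9a, the channel best known from pain-sensing and olfactory neurons. Its level was 22.0 to 78.2 CPM in hypothalamus (median 52.1) and 1.71 to 7.67 CPM in PFC (median 3.45), with no overlap between any library of one region and any of the other. The fold was 15.0 (log2 fold change -3.91, SE 0.11, adjusted p = 1.26e-24 by edgeR).

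Scn7a, an atypical alpha subunit that senses sodium in glia and neurons of the circumventricular organs, had 11.3 to 38.8 CPM in hypothalamus (median 20.4) and 1.09 to 11.4 CPM in PFC (median 5.26), ranges that touched at their ends, and a log2 fold change of -1.87 (SE 0.14). Scn11a, a channel of nociceptive sensory neurons, was scarce in both regions, at a median of 0.898 CPM in hypothalamus and 0.0769 CPM in PFC with some PFC libraries at 0, and its log2 fold change was -3.34 (SE 0.31). Scn10a, the other nociceptor channel, had a median of 0.215 CPM in hypothalamus and 0.358 CPM in PFC and went the other way (0.82, SE 0.32, adjusted p = 0.0234 by edgeR).

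The 4 sodium alpha genes of central neurons moved apart by far less. Scn8a, the channel of the axon initial segment and nodes of Ranvier in adult neurons, was at 306 to 587 CPM in PFC (median 365) and 101 to 222 CPM in hypothalamus (median 165), without overlap. Its fold was 2.41 (log2 fold change 1.27, SE 0.060). Scn2a, the other main channel of excitatory axons, was 0.44 higher on the log2 scale in PFC (SE 0.062), and Scn3a, which is most abundant before birth, was 0.85 lower (log2 fold change -0.85, SE 0.068). Scn1a, the main alpha subunit of fast-spiking interneurons, was not called (log2 fold change -0.10, SE 0.090, adjusted p = 0.319 by edgeR).

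Of the sodium beta subunits, 2 of 4 were higher in PFC. Scn4b, which supports resurgent sodium current, had 60.5 to 514 CPM in PFC (median 119) and 25.2 to 138 CPM in hypothalamus (median 52.5), with overlap, and a log2 fold change of 1.23 (SE 0.11). Scn3b was slightly lower in PFC (-0.13, SE 0.034), and Scn2b was not called (-0.01, SE 0.032).

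Scn4b followed the striatal markers. In all 8 groups the library with the highest summed level of the 8 striatal markers was also the library with the highest Scn4b, which no other channel gene matched (Cacng4 came next, in 5 of 8 groups). In PFC these were the 4 libraries of cage 6, with striatal sums of 768.4, 866.0, 940.5 and 2107 CPM and Scn4b at 181.2, 203.7, 233.9 and 513.5 CPM. In hypothalamus they were replicate 6 of both saline groups and of psilocybin at 3 h, with sums of 378.6 to 664.1 CPM and Scn4b at 77.1 to 137.7 CPM, and replicate 8 of psilocybin at 4 weeks, with 819.9 and 117.2 CPM. The gene was singled out after its values were seen, and the part of neighbouring striatal tissue in its levels was not tested. Over all libraries the striatal sum was 257.1 to 2107 CPM in PFC and 206.4 to 819.9 CPM in hypothalamus, and 4 of the 8 markers were higher and 2 lower in PFC. Without the 4 PFC libraries of cage 6 and saline 4-week PFC replicate 3, 21 channel genes were higher in PFC and 13 in hypothalamus. In that fit 72.8% of all 19084 genes were called (6683 higher and 7202 lower in PFC), so these counts say little of the channel genes.

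The log2 fold changes of the calcium channel pore genes ran from -1.44 (Cacna1s) to 0.89 (Cacna1a). Those of the 4 sodium alpha genes of central neurons ran from -0.85 to 1.27, and of the other sodium alpha genes Scn9a reached -3.91. The classes were not tested against each other. Every type of calcium pore held more than 1 pattern. Of the P/Q, N and R types, Cacna1a (0.89, SE 0.065) and Cacna1e (0.70, SE 0.059), which drive fast transmitter release and dendritic calcium entry, were higher in PFC. Cacna1b, the N-type pore, was not called (0.11, SE 0.057, adjusted p = 0.0709 by edgeR). Cacna1a had no overlap between regions, at 120.9 to 229.7 CPM in PFC and 39.6 to 114.2 CPM in hypothalamus.

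The T-type genes, whose channels open near rest and support burst firing, split 3 ways. Cacna1i was higher in PFC (0.65, SE 0.053), Cacna1g was higher in hypothalamus (-0.60, SE 0.072), and Cacna1h was not called (0.04, SE 0.071). Of the L types, the neuronal Cacna1c (0.28, SE 0.066) and Cacna1d (0.46, SE 0.070) and the retinal Cacna1f (0.78, SE 0.21) were higher in PFC. The skeletal muscle pore Cacna1s was higher in hypothalamus (-1.44, SE 0.18). Cacna1f and Cacna1s were at medians of 0.645 and 0.652 CPM in PFC and 0.430 and 1.63 CPM in hypothalamus, and 19.98% of the exonic bases of Cacna1s are shared with a gene on the opposite strand.

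Among the cytoplasmic beta subunits, which bind the pore and control its trafficking and inactivation, 3 of 4 were higher in PFC. Cacnb3 had 288 to 446 CPM in PFC (median 326) and 72.9 to 227 CPM in hypothalamus (median 89.4), and the regions did not overlap. Its fold was 3.60 (log2 fold change 1.85, SE 0.061). Cacnb4 (1.10, SE 0.090) and Cacnb1 (0.85, SE 0.047) followed, while Cacnb2, the main cardiac beta subunit, was higher in hypothalamus (-0.32, SE 0.047).

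The alpha2delta subunits, which take part in channel trafficking and synapse formation, split evenly. Cacna2d2 lay at 74.3 to 187 CPM in hypothalamus (median 160) and 22.4 to 62.6 CPM in PFC (median 35.5), without overlap, and was 4.43-fold higher in hypothalamus (log2 fold change -2.15, SE 0.054). Cacna2d4 was also higher there (-0.999, SE 0.098). Cacna2d3 (0.76, SE 0.042) and Cacna2d1 (0.59, SE 0.080) were higher in PFC.

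Of the 6 TARP genes tested, 4 were higher in PFC and 2 in hypothalamus. Cacng3, a TARP of forebrain AMPA receptors, had 118 to 184 CPM in PFC (median 150) and 18.9 to 35.7 CPM in hypothalamus (median 24.8), without overlap. It was 5.70-fold higher in PFC (log2 fold change 2.51, SE 0.054, adjusted p = 6.00e-28 by edgeR). Cacng8 (0.73, SE 0.054), Cacng7 (0.50, SE 0.033) and Cacng2 (0.40, SE 0.041), the last being stargazin, were also higher in PFC.

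Cacng5 and Cacng4 went the other way. Cacng5 was at 31.7 to 44.8 CPM in hypothalamus (median 37.4) and 5.18 to 29.6 CPM in PFC (median 8.12), and Cacng4 at 68.0 to 141.5 and 27.6 to 65.7 CPM, both without overlap. Their log2 fold changes were -2.08 (SE 0.089) and -1.09 (SE 0.062). Cacng6, related to the muscle gamma subunit, had the highest ratio of any member in PFC, 6.65-fold (log2 fold change 2.73, SE 0.16), on a median of only 1.36 CPM in PFC and 0.179 CPM in hypothalamus.

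**Figure D2:**
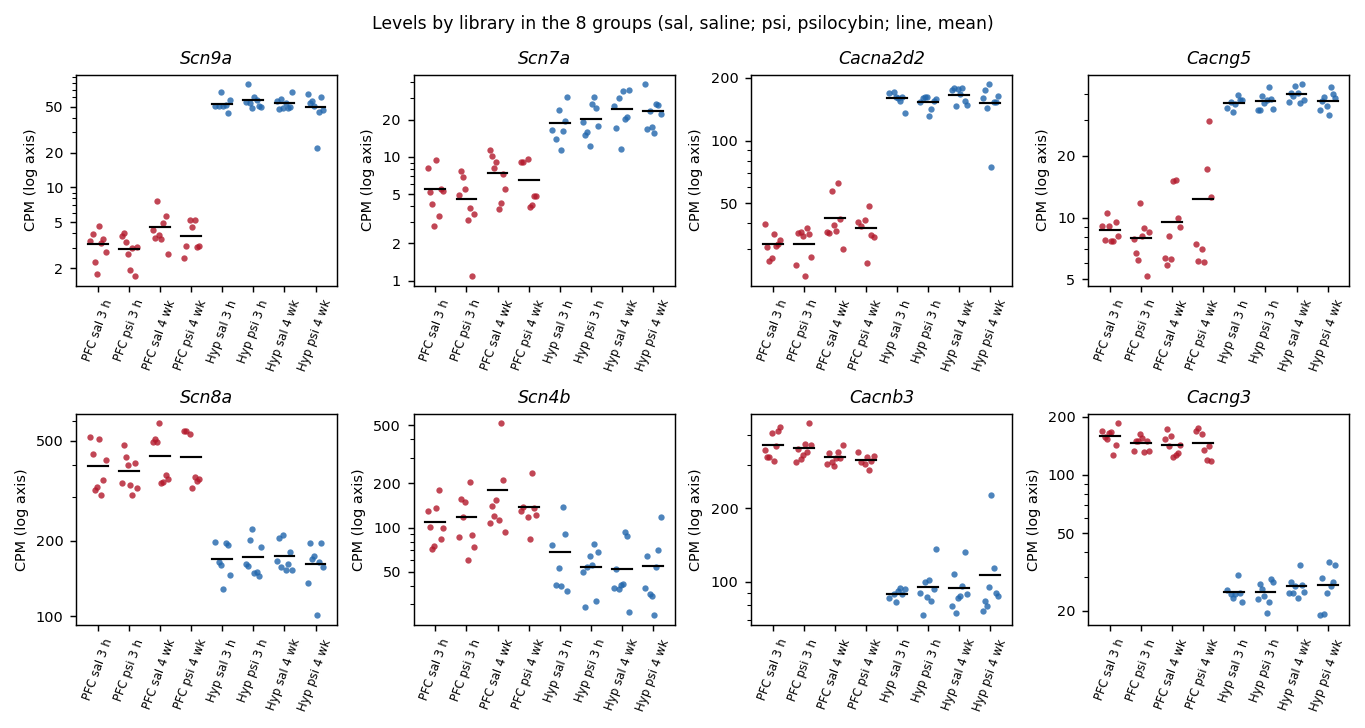
CPM (log axis) of Scn9a, Scn7a, Cacna2d2, Cacng5, Scn8a, Scn4b, Cacnb3 and Cacng3 in each of the 62 libraries, by group, with PFC in red, hypothalamus in blue and lines at the group means. Of these 8 genes Scn7a and Scn4b overlap between the regions, and the highest Scn4b point is at 513.5 CPM.

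In all, the ranges of all libraries did not overlap between the regions for 11 of the 38 channel genes (28.9%), 6 with PFC above (Cacna1a, Cacna2d3, Cacnb1, Cacnb3, Cacng3 and Scn8a) and 5 with hypothalamus above (among them Cacna2d2, Cacng4, Cacng5 and Scn9a), where 11.3% of all 18971 genes did not overlap (6.57% with PFC and 4.69% with hypothalamus above). Without psilocybin 4-week hypothalamus replicate 5 there were 13 such genes (34.2%), with Scn3a added to the second set, against 14.4% of all genes (7.62% and 6.74%). Tested within each condition alone, 29 channel genes were called in psilocybin mice at 3 h, 32 in psilocybin mice at 4 weeks, 29 in saline mice at 3 h and 32 in saline mice at 4 weeks. The background was 55.5%, 54.7%, 53.3% and 54.9% of all genes. All 34 genes called in the average kept 1 direction in all 4 conditions. Markers of several cell types also differed between the regions: the sum of 6 cortical excitatory markers was 1381 to 1973 CPM in PFC and 99.2 to 215.6 CPM in hypothalamus (5 of 6 higher in PFC), and that of 6 oligodendrocyte markers 2303 to 6741 and 6065 to 10940 CPM (6 of 6 lower in PFC). The 7 hypothalamic markers summed to 0.938 to 12.8 CPM in PFC and 321.4 to 2684 CPM in hypothalamus (7 of 7 lower in PFC, with Hcrt, Pmch, Oxt, Avp and Sim1 at 0 in some PFC libraries), and the 4 thalamic markers to 27.2 to 56.5 and 86.6 to 416.8 CPM (4 of 4 lower). The part of cell type makeup in the channel gene differences was not tested.

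Some sodium channel genes that are neighbours on a chromosome were called in opposite directions. On chromosome 2 (65457118 to 66784914, GRCm38) 5 sodium alpha genes lie within 1.328 Mb in the order Scn3a, Scn2a, Scn1a, Scn9a and Scn7a. Their log2 fold changes of PFC over hypothalamus were -0.85, 0.44, -0.10, -3.91 and -1.87, so Scn2a and Scn3a, which lie next to each other on opposite strands, were called in opposite directions. Scn9a and Scn7a were both higher in hypothalamus, and Scn1a was not called. On chromosome 9 (119608456 to 119825456) Scn10a (0.82) and Scn11a (-3.34) lie within 0.217 Mb and were called in opposite directions in the average. The Scn10a side is weak: its medians were 0.358 CPM in PFC and 0.215 CPM in hypothalamus. Tested within each of the 4 conditions it was called in 0, with values of 0.13 to 1.36. The beta genes Scn2b (-0.01, not called) and Scn4b (1.23) are neighbours elsewhere on chromosome 9 (45117782 to 45154152).

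The tested genes of each gamma cluster kept 1 direction. On chromosome 7 (3332955 to 3435667) Cacng7, Cacng8 and Cacng6 were all higher in PFC, at 0.50, 0.73 and 2.73. On chromosome 11 (107703218 to 107915055) Cacng4 (-1.09) and Cacng5 (-2.08) were higher in hypothalamus, and Cacng1, the skeletal muscle gamma subunit, did not pass the filter on low counts (median 0.168 CPM in hypothalamus and 0.0405 CPM in PFC). Fitted without that filter, Cacng1 had a log2 fold change of -1.51 (SE 0.46). It met the minimum of 0.1 CPM only through hypothalamus (mean 0.175 CPM, against 0.0641 CPM in PFC). Its direction is therefore partly fixed by the choice of members and adds nothing to the cluster. Sequence shared within the chromosome 2 cluster was limited: 6.22% of the 52-base windows of Scn3a, 5.49% of Scn2a, 4.04% of Scn9a and 3.83% of Scn1a also occur in another gene, mostly one of these, and reads from them can be lost or split.

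**Figure D3:**
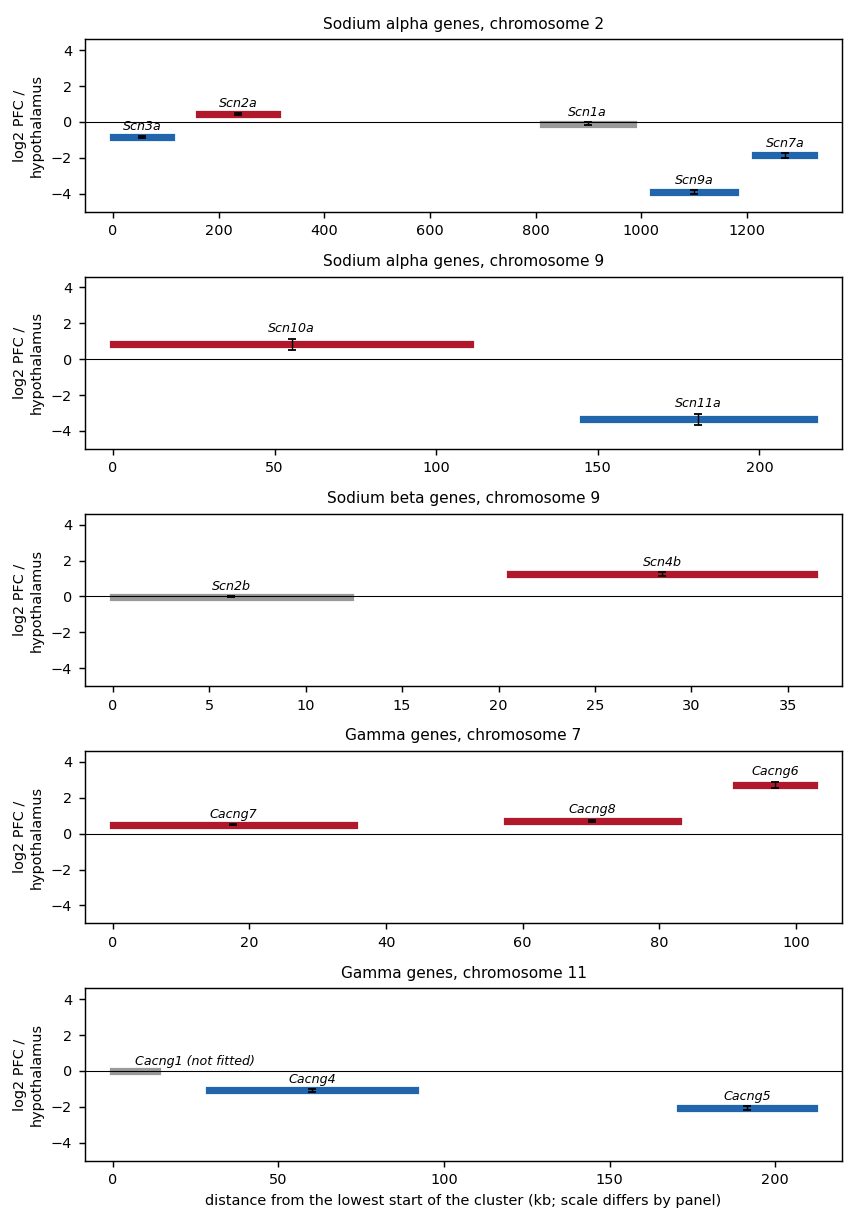
Log2 fold change of PFC over hypothalamus against distance in kb from the lowest start of the cluster, for the 5 clusters of channel genes, each bar spanning 1 gene, error bars for the SE, red and blue for genes called higher in PFC or hypothalamus and grey for the others. In the chromosome 2 cluster Scn2a lies above 0 and Scn3a, Scn9a and Scn7a below, and in the chromosome 7 cluster all 3 gamma genes lie above 0.

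In a list of 40 genes that work with these channels both directions were also found. In the region comparison 23 were higher and 9 lower in PFC, 80.0% of the list, close to the 75.2% of all genes. Higher in PFC were the calcium sensor Cabp1 (2.70), the channel adaptor Stac2 (2.62), the intracellular calcium release channel Itpr1 (2.48), the sodium-calcium exchanger Slc8a2 (2.19), the presynaptic scaffold Rims1 (1.81), the sodium channel ubiquitin ligase Nedd4l (0.92) and the sodium channel partner Fgf13 (0.80), all as log2 fold changes. Lower in PFC were the adaptor Stac (-3.04), the channel-inhibiting small GTPase Rrad (-2.08), the alpha2delta-like Cachd1 (-1.75), the exchanger Slc8a3 (-1.30), the release channel Ryr3 (-0.93) and the sodium leak channel Nalcn (-0.65). Ankyrin G (Ank3, 0.04) and Fgf14 (0.08), both of the axon initial segment, were not called.

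Psilocybin was compared with saline in each region and time, in 1 edgeR quasi-likelihood fit over the 62 libraries and 18971 genes with group and extraction pool as terms. None of the 38 channel genes passed an adjusted p of 0.05 in any of the 4 comparisons. The background was 0.0105% of all genes in PFC at 3 h (2 genes) and 0.0% in PFC at 4 weeks and in hypothalamus at either time, so a count of 0 among 38 genes is the background rate and says nothing particular about them. At an unadjusted p under 0.05 there were 1, 0, 0 and 0 channel genes in PFC at 3 h, PFC at 4 weeks, hypothalamus at 3 h and hypothalamus at 4 weeks, against 7.23%, 2.4%, 1.78% and 9.61% of all genes. DESeq2 called 0 in each, where it called 0.0474%, 0.1%, 0.0% and 0.0685% of all genes. The kind of model used in the study, limma with voom quality weights, was run over the same 62 libraries. The study had left out a further sample, rich in wound healing and immune genes, that could not be identified here. Limma called 2 channel genes in PFC at 3 h (5.26%), below the 8.18% of all genes it called there. It called 0 in the others, where it called 0.0% of all genes. No channel gene had group ranges that did not overlap in any of the 4 comparisons, where 0.0105%, 0.0%, 0.0474% and 0.0% of all genes did.

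**Figure D4:**
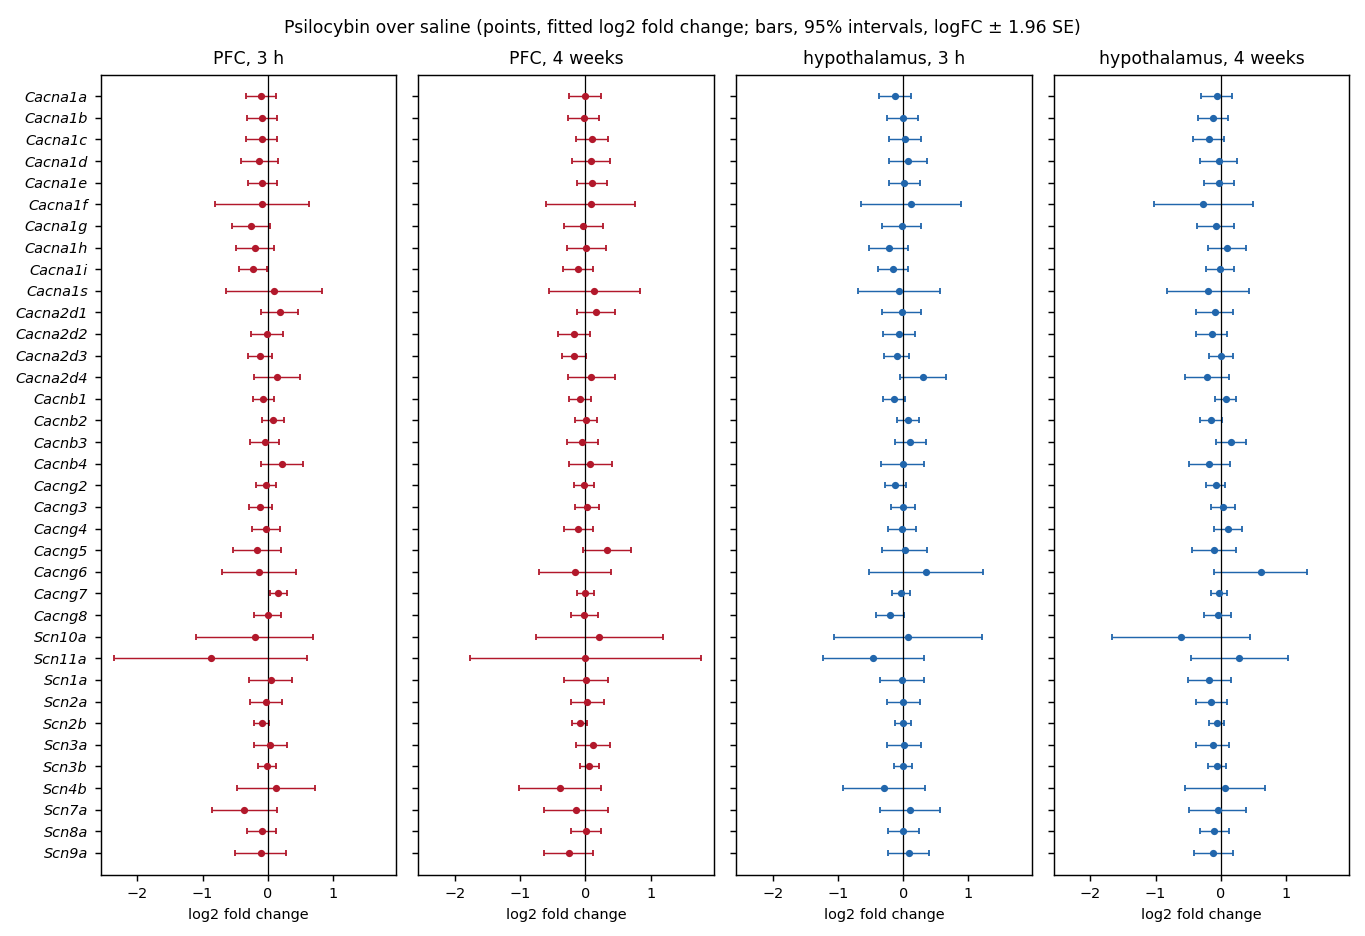
Log2 fold change of psilocybin over saline for 36 channel genes in PFC and hypothalamus at 3 h and 4 weeks, points with 95% intervals. No gene passed an adjusted p of 0.05 by edgeR, and the widest intervals belong to scarce genes such as Scn10a and Scn11a.

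In PFC at 3 h the channel gene with the smallest p was Cacng7, a TARP. Its level was 130.2 to 190.9 CPM after saline (median 152.2) and 151.9 to 216.3 CPM after psilocybin (median 173.4), with wide overlap. The log2 fold change was 0.16 (SE 0.066, adjusted p = 0.634 by edgeR). Next were the T-type genes Cacna1i (-0.22, SE 0.11) and Cacna1g (-0.26, SE 0.15), with adjusted p values of 0.692 and 0.748 by edgeR. The signs of these values rest on the treatment labels of the 3 h PFC libraries, which are in doubt, as set out below.

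The genes called by limma with voom weights in PFC at 3 h were Cacnb4 and Cacna2d1, both higher after psilocybin (5.26%). This direction is in doubt: it rests on the treatment labels of the 3 h PFC libraries and on how the contrast is signed (psilocybin over saline), and no measurement here checks those labels. Of all 18971 genes the limma fit called 1149 higher (6.06%) and 402 lower, and with the direction turned the 402 would be the background. Cacnb4 was at 145.0 to 368.0 CPM after saline (median 215.8) and 129.0 to 328.5 CPM after psilocybin (median 261.4). Its log2 fold change by limma was 0.42 (SE 0.12, adjusted p = 0.0223). Cacna2d1 was at 183.4 to 413.4 CPM after saline (median 244.9) and 145.4 to 356.7 CPM after psilocybin (median 322.1), with 0.37 by limma (SE 0.10, adjusted p = 0.0154). For both genes the lowest library after psilocybin, replicate 7, was below every saline library, and edgeR called neither.

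At 4 weeks in PFC the smallest p values belonged to Cacna2d3 (-0.18, SE 0.096), Cacng5 (0.33, SE 0.19) and Scn2b (-0.09), each with an adjusted p of 1.0 by edgeR. The Cacng5 value rested on psilocybin replicate 7, at 29.6 CPM in a region with a median of 8.12, and was -0.014 without it. In hypothalamus at 3 h they were Cacng8 (-0.21), Cacna2d4 (0.30) and Cacnb1 (-0.14), again with an adjusted p of 1.0 by edgeR. In hypothalamus at 4 weeks they were Cacnb2 (-0.15, adjusted p = 0.581), Cacng6 (0.61, SE 0.37, adjusted p = 0.625) and Cacna1c (-0.18, adjusted p = 0.671), all by edgeR. Without psilocybin replicate 5, which stands apart, these values were -0.073, 0.39 and -0.057.

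The size of psilocybin difference that fits these libraries can be read from the 95% intervals. In PFC at 3 h the interval lay within a 2-fold change in either direction for 36 of the 38 genes, and in the other comparisons for 35, 35 and 34. The intervals that reached past 2-fold were, in 1 or more comparisons, those of the scarce Scn10a, Scn11a, Cacng6 and Cacna1f and, in PFC at 4 weeks, of Scn4b. Within 0.5 on the log2 scale the interval lay for 26, 28, 28 and 29 genes, and those outside it included Cacnb4 and Cacna1g in PFC at 3 h and Scn1a in hypothalamus at 4 weeks. Of the 40 related genes 0 passed in any of the 4 comparisons by edgeR.

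Differences between psilocybin responses were tested as interactions in the same edgeR fit, and 0 channel genes passed, as did 0.0% of all genes. This fit has no term for the mouse, so both regions of a mouse enter as separate libraries. The interactions that use PFC at 3 h also rest on the treatment labels of those libraries, which are in doubt. Between regions at 3 h the smallest p was that of Cacng7 (0.20), followed by Scn7a (-0.46) and Cacng8 (0.20). Between 3 h and 4 weeks in PFC the smallest p values were those of Cacng5 (-0.49), Cacng7 (0.17) and Scn4b (0.52), and in hypothalamus those of Cacna2d4 (0.51), Cacnb2 (0.23) and Cacnb1 (-0.22). These are differences of log2 fold changes, and 1, 0 and 1 channel genes had an unadjusted p under 0.05, against 2.78%, 3.08% and 5.27% of all genes.

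The 3 h and 4-week mice were also compared within each treatment. These comparisons share no libraries with each other but share theirs with the psilocybin comparisons, and time since injection and age cannot be told apart. In PFC they rest on the same 3 h treatment labels, which are in doubt. In saline PFC 2 of 38 channel genes differed by edgeR (5.26%), both lower at 3 h, where 4.72% of all genes differed and 2.34% were lower. DESeq2 called 3 channel genes and 6.04% of all genes, and limma with voom weights 1 and 7.79%. The limma call was Scn1a (-0.42, SE 0.12, adjusted p = 0.0185), neither of the genes called by edgeR. By edgeR 1 of 5 microglial markers was called higher at 3 h in the same comparison (list median 0.23), with sums of 307.7 to 562.6 CPM at 3 h and 301.1 to 468.5 CPM at 4 weeks, and its part was not tested. No channel gene had group ranges without overlap in any time comparison, where 0.432% of all genes did in saline PFC, 0.859% in saline hypothalamus, 0.965% in PFC after psilocybin and 0.348% in hypothalamus after psilocybin.

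Cacna2d2, 1 of the 2 genes, was at 26.5 to 39.8 CPM at 3 h (median 31.5) and 30.2 to 62.6 CPM at 4 weeks (median 38.1), with overlap. Its log2 fold change (3 h over 4 weeks) was -0.41 (SE 0.12, adjusted p = 0.0365 by edgeR). Next by p was Cacng6 (-0.82, SE 0.28, adjusted p = 0.0769 by edgeR), at 0.401 to 1.68 and 1.22 to 2.25 CPM. With the cage as a block, 0 channel genes were called by edgeR, with Cacna2d2 at -0.38 (adjusted p = 0.0531), and limma with voom weights did not call Cacna2d2 (-0.29, adjusted p = 0.0874).

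The highest saline 4-week values of Cacna2d2 were those of replicates 3 and 6. Replicate 3, with the hypothalamic marker sum of 12.8 CPM, had Scn9a at 7.67 and Cacna2d2 at 57.5 CPM. Replicate 6, with the striatal sum of 2107 CPM, had Scn9a at 4.93 and Cacna2d2 at 62.6 CPM, and its hypothalamic marker sum was 3.21 CPM, near the PFC median of 2.75. Scn9a was at 5.61 CPM in replicate 7, with a hypothalamic sum of 3.26 CPM. The part of neighbouring tissue in these values was not tested. Without replicate 3 and the 4 PFC libraries of cage 6, neither call was made by edgeR, with Cacna2d2 at -0.19 (adjusted p = 0.406), and Cacnb1 and Scn3b were called higher at 3 h instead (5.26%), where 3.98% of all genes were called and 2.39% were higher.

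**Figure D5:**
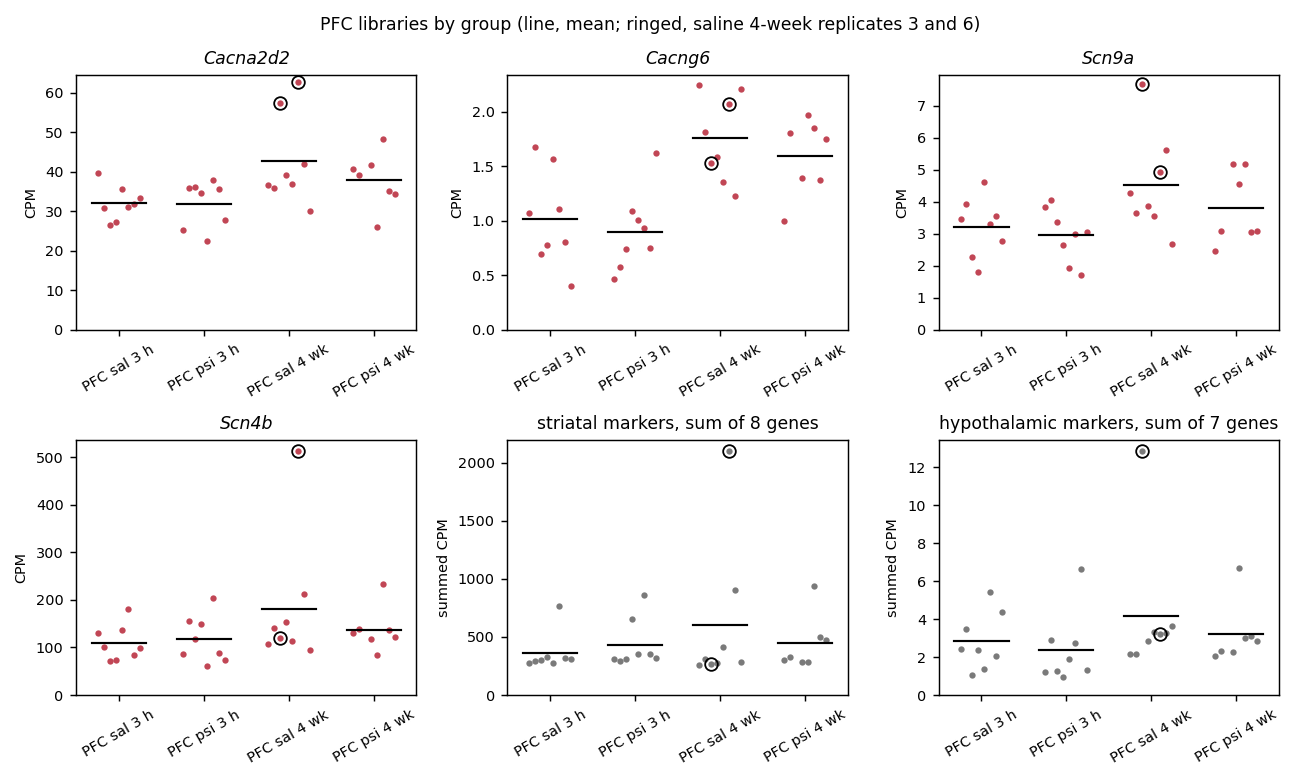
CPM of Cacna2d2, Cacng6, Scn9a and Scn4b and the summed CPM of 8 striatal and 7 hypothalamic markers in each PFC library, by group, with lines at the group means and rings around saline 4-week replicates 3 and 6. The ringed Cacna2d2 points, 57.5 and 62.6 CPM, lie above the other PFC libraries.

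In PFC after psilocybin 0 of 38 channel genes passed by edgeR, where 5.96% of all genes did. At an unadjusted p under 0.05 there were 10 channel genes (26.3%), against 20.4% of all genes, and DESeq2 called 1, where it called 7.84% of all genes. Limma with voom weights called 10 channel genes (26.3%), of which 9 were lower at 3 h, where it called 18.7% of all genes and 9.41% were lower. Markers of non-neuronal cells were mixed in the same comparison by edgeR. Of these, 0 of 6 oligodendrocyte markers (list median 0.13), 0 of 4 endothelial markers (0.11) and 0 of 4 choroid plexus markers (-0.54) were called. Called higher at 3 h were 2 of 5 tested wound and immune markers (0.62), 1 of 5 astrocyte markers (0.32) and 1 of 5 microglial markers (0.27). Their sums overlapped between 3 h and 4 weeks, at 31.9 to 136.1 and 30.9 to 52.2 CPM, 1479 to 2841 and 1290 to 2230 CPM, and 313.9 to 534.9 and 302.1 to 455.9 CPM. Their part in the channel gene values was not tested. The smallest adjusted p values were those of Cacng5 (-0.54, SE 0.19, adjusted p = 0.0804 by edgeR), Cacng6 (-0.80, adjusted p = 0.0877) and Cacna1d (-0.39, adjusted p = 0.0979). Cacna1d was at 40.0 to 69.4 CPM at 3 h (median 49.6) and 48.4 to 92.8 CPM at 4 weeks (median 70.7). Cacng5 was at 5.18 to 11.8 CPM at 3 h (median 8.00) and 6.06 to 29.6 CPM at 4 weeks (median 7.46), so the medians ran against the sign of the fitted value. Its log2 fold change was -0.21 without psilocybin 4-week replicate 7, 0.25 within pool C and -1.09 within pool D (adjusted p = 0.00428 by edgeR).

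In hypothalamus 0 of 38 channel genes differed with time by edgeR after saline, where 0.685% of all genes did, and 0 after psilocybin, where 1.16% did. At an unadjusted p under 0.05 there were 2 and 1 channel genes, against 8.09% and 17.4% of all genes. DESeq2 called 0 in both, where it called 0.912% and 2.36% of all genes. Limma with voom weights called 2 after saline (5.26%) and 0 after psilocybin, where it called 5.9% and 3.84% of all genes. After saline the smallest p values belonged to Cacna1h (0.39, SE 0.15, adjusted p = 0.408 by edgeR), Cacna1i (0.25, adjusted p = 0.541 by edgeR) and Cacnb1 (0.17). The T-type genes Cacna1h (0.34, adjusted p = 0.0306) and Cacna1i (0.24, adjusted p = 0.0427) were those called by limma. After psilocybin the smallest p values belonged to Cacng6 (-1.04, SE 0.38, adjusted p = 0.150 by edgeR), Cacna2d4 (0.32) and Cacnb2 (0.13).

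Whether the saline time difference itself differed between the regions was tested in the same edgeR fit, again without a term for the mouse. This test uses the saline 3 h PFC libraries, whose treatment labels are in doubt. Of the channel genes 0 passed, against 0.0369% of all genes. At an unadjusted p under 0.05 there were 5 channel genes (13.2%), against 5.84% of all genes. The smallest adjusted p was 0.397 by edgeR, and Scn4b (-1.06) and Cacna1h (-0.47) were among the 3 genes with the smallest p. Among the related genes, the exchanger Slc8a3 was lower at 3 h in PFC after saline (-0.40, SE 0.10, adjusted p = 0.0136 by edgeR) and after psilocybin (-0.36, adjusted p = 0.0328 by edgeR). Rrad, the small GTPase, was higher at 3 h in hypothalamus after saline (0.92, SE 0.18, adjusted p = 0.0023 by edgeR) and after psilocybin (0.68, SE 0.17, adjusted p = 0.0274 by edgeR).

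PFC levels at 4 weeks differed between the extraction pools. In those 15 libraries 8 of 38 channel genes (21.1%) had ranges that did not overlap between pools C and D, where 8.98% of all genes did not, and in all 8 pool C was above. They were the P/Q, N and R-type pores Cacna1a, Cacna1b and Cacna1e, the T-type pores Cacna1g and Cacna1i, the TARP Cacng2, and Scn7a and Scn8a. Scn8a was at 492.8 to 587.0 CPM in pool C (median 533.0) and 325.8 to 364.7 CPM in pool D (median 348.4). Cacna1a had medians of 216.2 and 139.3 CPM, Cacna1g 120.7 and 68.7 CPM, and Scn7a 9.15 and 4.52 CPM. In PFC at 3 h 0 of 38 genes separated the pools (0.0105% of all genes), in hypothalamus at 3 h 2 did (Cacna1b and Scn3b, 5.26%, against 3.54%) and in hypothalamus at 4 weeks 0 (0.132% of all genes). Marker sums were apart between the same pools in PFC at 4 weeks for 5 of 13 lists: cortical excitatory markers were at 1706 to 1930 CPM in C and 1381 to 1699 CPM in D, astrocyte markers at 1265 to 1529 and 1895 to 2368 CPM, oligodendrocyte markers at 2303 to 2755 and 4218 to 6033 CPM, microglial markers at 301.1 to 356.3 and 413.0 to 468.5 CPM, and wound and immune markers at 30.9 to 42.3 and 43.7 to 62.4 CPM. Their part in the channel gene differences was not tested. Pools C and D hold different cages, so pool and cage set cannot be told apart, and both treatments are in each pool.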

How the data were processed

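Gene counts for 64 libraries, deposited by the authors as 1 table of raw counts, were analysed. Per the labels and the study's methods, poly-A RNA libraries (TruSeq Stranded mRNA) were read as 52-base pairs, demultiplexed with bcl2fastq 2.20.0, aligned with STAR 2.7.2b to GRCm38 and counted with featureCounts 1.6.2. The 2 libraries with fewer than 1000000 counts were left out. Poly-A selection and counting over whole gene models mean that levels between genes were compared only as TPM, computed from counts and the gene length column.

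Counts were tested in R 4.3.3 with edgeR 4.0.16 (TMM scaling, filterByExpr with a minimum count of 10, quasi-likelihood test, Benjamini-Hochberg over all genes, called at an adjusted p under 0.05). Group and extraction pool were terms, and the region comparison had the mouse as a block. Fold changes are log2. Alternatives used limma 3.58.1 with voom quality weights, DESeq2 1.42.0, other scalings and filters, a gene length offset, a cage block, and libraries left out. Tests over pools and over 57 or 60 libraries were chosen after seeing the data. The scripts were tested on simulated data.

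The members, subgroups, related genes and marker lists were chosen with earlier results of these data known. Named genes are those called, or the 6 with the largest change in each direction where over 12 were called, or the 3 with the smallest p where under 3 were. Replicate numbers are cage numbers, a label of shared housing, and were taken to pair the libraries: the deviations of same-cage libraries from their group means correlated by 0.0806 on average in PFC and 0.0723 in hypothalamus (45 pairs each), and by -0.00279 and 0.0076 once pool was removed too. p-values measure the spread between mice. In the region comparison, with the mouse as a block, they measure how the difference between regions varies over mice. The group fit has no term for the mouse. Gene positions are those of GRCm38 and promoters of the RefSeq table on GRCm38.p6. Of the 39 genes, 10 share exonic bases with a gene on the opposite strand and 1 with a gene on its own strand (Cacng8, 3.88%). Results for 2 of the 38 genes are not reported here, though fits and counts include them.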

Additional observations from a re-analysis of the deposited data

Results flagged for a closer look

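Each of 36 channel genes was looked at in each of the 8 groups for a single library far from the others, by the gap to the nearest library as a share of the group's range (Dixon's 95% value). In 26 of 288 such groups the highest or lowest library lay past that value, and chance gives about 1 in 20. They were not spread evenly over the libraries: 9 came from psilocybin 4-week hypothalamus replicate 5 and 5 from psilocybin 3 h PFC replicate 7.

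In psilocybin 4-week hypothalamus replicate 5 the values were low for Scn1a (36.83 CPM), Scn2a (96.98 CPM), Scn3a (26.37 CPM), Scn9a (22.03 CPM), Cacna1d (12.27 CPM), Cacna2d1 (74.99 CPM) and Cacna2d2 (74.33 CPM). They were high for Cacnb3 (227.0 CPM) and Cacng4 (141.5 CPM). The voom quality weight of this library was 0.0276, the lowest of all, and the next lowest, 0.120, was that of psilocybin 3 h PFC replicate 7. In that PFC library Cacna2d1 (145.4 CPM) and Scn2a (234.1 CPM) were low and Cacna1h (61.57 CPM), Cacnb3 (445.7 CPM) and Cacng8 (57.55 CPM) high.

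In the PFC libraries of cage 6, Scn4b stood out at 4 weeks after saline (513.5 CPM) and after psilocybin (233.9 CPM), and Scn3b was low at 3 h after saline (103.4 CPM). In the hypothalamus libraries of cage 6, Cacng3 was high after saline at 3 h (30.62 CPM) and 4 weeks (34.37 CPM), and Scn10a was low after psilocybin at 4 weeks (0.05964 CPM).

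In psilocybin 3 h hypothalamus, replicate 2 was low for Cacng2 (62.2 CPM) and high for Scn9a (78.18 CPM), and replicate 8 was high for Cacnb3 (136.6 CPM). Scn3b was high in saline 4-week hypothalamus replicate 4 (156.5 CPM). The scarce nociceptor genes gave the rest, Scn10a in psilocybin 3 h PFC replicate 1 (1.445 CPM) and Scn11a in saline 3 h PFC replicate 5 (0.5237 CPM).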

How the results depend on the processing

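The region comparison called 34 channel genes, and the 10 of them named with their full values kept their direction and call under every alternative run. These 10 were named for their large changes, so this says little of the weaker calls. Tested within each of the 4 conditions, Scn10a was called in 0, Cacna1c and Scn3b in 1 and Cacna1f in 2. Within pools A and C 21 channel genes were higher and 13 lower in PFC (67.0%), and within B and D 20 and 12 (66.7%). Psilocybin against saline gave 0 channel genes under all alternatives, libraries left out in turn included, except limma with voom weights in PFC at 3 h, which gave 2 (8.18% of all genes). Shares in parentheses are of all genes called in the same fit. In saline PFC the 2 time calls (4.72%) became 4 over 61 libraries (8.32%, without psilocybin 4-week hypothalamus replicate 5) and over 60 (10.1%, chosen after seeing the data, also without psilocybin 3 h PFC replicate 7), 4 with a gene length offset (10.3%), 1 over all 64 libraries (2.78%), 1 by limma with voom weights (7.79%; Scn1a, not Cacna2d2), 0 without the filter on low counts (1.01%), and 0 within pool C (1.79%) and within pool D (0.738%). With the replicate block on cage 0 were called (4.19%), and 1 with the block and the length offset (9.51%). Leaving out 1 library at a time gave 0 to 5 calls: Cacna2d2 was lost without saline 4-week replicate 3, 6 or 7 or saline 3 h replicate 2, 3, 4 or 7. In PFC after psilocybin the 0 calls (5.96%) became 3 over 61 libraries (11.3%), 4 over 60 (12.3%), 1 by DESeq2 (7.84%), 1 with the length offset (9.56%), 1 with the block and the offset (8.82%), 2 within pool D (1.35%) and 10 by limma with voom weights (18.7%), and 0 to 1 leaving out 1 library. In saline hypothalamus 0 (0.685%) became 2 by limma with voom weights (5.9%). The block changed no other call. Directions that turned were those of uncalled values: Cacng5 at 4 weeks in PFC (psilocybin over saline) to -0.014 without psilocybin replicate 7 (-0.014 to 0.46 over the libraries left out in turn), Cacng6 in hypothalamus at 4 weeks to -0.028 within pool A, Cacna1c there to 0.0057 by limma with voom weights, Cacng5 in PFC after psilocybin to 0.25 within pool C, and, in the 3 h response between regions within pools A and C, Scn7a to 0.49 and Cacng8 to -0.045. The causes were not tested. Depth limits what can be said of Scn10a, Scn11a, Cacng6 and Cacna1f, with medians of 1.36 CPM or less in both regions.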
